A study of Mus musculus with 65 samples.

Results

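Regulators of alternative splicing, 10 genes in all, were followed in single outer hair cells of the mouse cochlea: Srrm3, Srrm4, Rbm24, Esrp1, Esrp2, Rbfox1, Rbfox2, Nova1, Ptbp1 and Ptbp2. They were taken by name, as 10 of the 55292 gene rows of the deposited count table, and all 10 were found. Each library was 1 cell picked by hand at postnatal day 10. The 48 WT cells came from Slc26a5FlpO/+; Rosa26FSF-H2BEGFP/+ mice, in which a recombinase driven by the prestin gene switches on nuclear green fluorescence. The 17 CKO cells came from Atoh1Cre/+; Casz1flox/flox; Slc26a5FlpO/+; Rosa26FSF-H2BEGFP/+ mice, so both groups carry the driver and the reporter, and only CKO cells carry Cre and the floxed alleles of Casz1, a zinc finger transcription factor. The series asks what Casz1 does for the fate and survival of hair cells. The labels name no animal, so each genotype counts as 1 sample and no test was possible between them. Intervals on CPM and ratios are 95% intervals of counting error alone. Those on shares of cells are 95% binomial intervals that treat cells as independent draws and leave out the spread between animals.

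The cells held 7458126 to 17107710 counts each in WT and 8239671 to 15320549 in CKO, with a median of 7585.5 and 7417 genes detected. Slc26a5 (prestin) had a count in all 48 WT and 17 CKO cells, at 931 and 1175 CPM (counts per 1000000 counts), and Myo7a, a hair cell myosin, at 247 and 199 CPM. Casz1 itself was counted in 42 WT and 15 CKO cells; the floxed exons are not named in the labels, so this checks nothing about the deletion. Summed CPM over 10 supporting cell markers had a median of 32.3 per WT cell (0 to 697) and 0.358 per CKO cell (0 to 310), and the supporting cell factor Sox2 had a count in 2 WT cells and 0 of 17 CKO cells. Summed CPM over 9 neuronal markers had a median of 237 per WT cell (0 to 897) and 184 per CKO cell (0.224 to 559). This sum includes Snap25, which hair cells express too, at 186 and 171 CPM, and Nefl at 32.1 and 51.0 CPM in 25 and 9 cells, while Tubb3 had a count in 2 WT cells and 1 CKO cell and Gap43 and Scn1a had none. For 5 glial markers the medians were 97.4 (0 to 459) and 16.8 CPM (0 to 220). For 6 inner hair cell markers they were 156 (0 to 1041) and 79.7 CPM (0.0653 to 314). The part of other cell types in the levels of the 10 genes was not tested. Cells with Xist and without Y-linked transcripts numbered 9 of 48 in WT and 15 of 17 in CKO. The WT cells fell by mitochondrial transcript level into runs numbered 1 to 11, 12 to 45 and 46 to 48. The labels say nothing of these runs. Run 1 to 11 supplied 8 of those 9 Xist cells, run 12 to 45 supplied 1 and run 46 to 48 supplied 0. Sex and run are thus largely tied within WT. Ratios among Xist cells and ratios against run 1 to 11 share most of their WT cells and are not independent. The genotype cannot be told apart from sex or run in most cells, and values within them are given beside the results they touch.

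A gene's pre-mRNA can be joined in several ways, and these proteins decide which exons a cell keeps. SRRM3 and SRRM4 promote the inclusion of very short exons (microexons) in neurons and sensory cells, RBM24 is an RNA-binding protein of muscle and hair cells that supports inclusion of cell-type-specific exons, including ones in stereocilia genes such as Cdh23, and ESRP1 and ESRP2 run the epithelial splicing programme. RBFOX and NOVA proteins bind short RNA motifs and act in neurons among other cells. PTBP1 represses many neuronal exons and lowers PTBP2 in cells where it is abundant, by making Ptbp2 transcripts skip an exon. In hair cells, SRRM4 is known for an exon of Rest whose inclusion inactivates the REST repressor of neuronal and hair cell genes. The table counts whole genes and holds no measure of which exons were used.

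The paralogs are close relatives, and for 3 pairs the stretches where their coding sequences are most alike are printed to show that their counts can be told apart. Each line gives the coding strand 5′ to 3′ from GENCODE M21 on GRCm38 (mm10), with the longest run shared by both paralogs in capitals and up to 30 coding bases on either side in lower case.
Rbfox1: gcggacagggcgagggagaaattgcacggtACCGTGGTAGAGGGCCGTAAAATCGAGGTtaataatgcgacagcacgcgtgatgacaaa
Rbfox2: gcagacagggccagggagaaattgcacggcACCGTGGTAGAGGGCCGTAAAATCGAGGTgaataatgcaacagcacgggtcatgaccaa
Ptbp1: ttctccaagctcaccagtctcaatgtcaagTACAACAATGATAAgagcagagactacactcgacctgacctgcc
Ptbp2: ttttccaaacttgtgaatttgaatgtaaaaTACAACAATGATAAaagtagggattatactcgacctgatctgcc
Srrm3: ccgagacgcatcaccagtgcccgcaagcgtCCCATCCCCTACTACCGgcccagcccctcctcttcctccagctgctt
Srrm4: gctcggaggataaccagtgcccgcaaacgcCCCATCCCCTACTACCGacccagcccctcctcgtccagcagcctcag
The shared run was 29 bases in the Rbfox pair, 14 in the Ptbp pair and 17 in the Srrm pair. No stretch of 50 bases in the transcripts of any of the 10 genes recurred in another of the 10. The printed windows lie at chr16:7292221-7294101 (plus strand, 2 exons) for Rbfox1, chr15:77102908-77105633 (minus, 2 exons) for Rbfox2, chr10:79859832-79859905 (plus, 1 exon) for Ptbp1 and chr3:119740386-119740459 (minus, 1 exon) for Ptbp2. Those of the Srrm pair lie at chr5:135869278-135873139 (plus, 2 exons) for Srrm3 and chr5:116444815-116446506 (minus, 2 exons) for Srrm4.

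Other genes share sequence with some of them. Of the distinct 50-base stretches of Ptbp1, 18.3% also occurred in other genes: in Plppr3, E130317F20Rik and Gm17134, which overlap it on the opposite strand, and in the processed pseudogenes Gm4900 and Gm18815. Of these, Gm4900 stood at 0.0493 CPM in WT cells and Gm18815 and Gm17134 had no count, while E130317F20Rik stood at 10.3 CPM and Plppr3 at 4.90 CPM. The strand setting of the counting is not given, so reads of Ptbp1 and its opposite-strand neighbours cannot be told apart where they overlap. The share was 5.3% for Esrp2 (with Nfatc3 and 1810019D21Rik), 3% for Nova1 (with Gm33869, on the same strand), 1.23% for Esrp1, 0.609% for Srrm3, 0.232% for Srrm4 (with its antisense transcript Srrm4os) and 0 for Rbm24, Rbfox1, Rbfox2 and Ptbp2.

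Rbm24 and Ptbp1 were the most abundant of the 10 genes in outer hair cells, and Esrp1 and Rbfox1 were close to none. Pooled Esrp2 was near the level of Nova1 in WT, from 4 cells with a count, and close to none in CKO, at 0.00692 CPM per kb. Divided by the length of merged exons, the pooled WT level was 93.3 CPM per kb for Rbm24, 29.2 for Ptbp1, 7.51 for Rbfox2, 4.06 for Ptbp2, 3.94 for Srrm3, 0.635 for Srrm4, 0.538 for Nova1, 0.447 for Esrp2, 0.00174 for Esrp1 and 0.000415 for Rbfox1. In CKO cells the order of the first 7 was the same, at 107, 27.1, 11.3, 5.63, 4.12, 1.68 and 0.193 CPM per kb. Per kb, Rbm24 had the highest level of the 10 in 42 of 48 WT and 16 of 17 CKO cells, and Ptbp1 in the other 6 and 1.

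Neighbours in this order were not all separated cell by cell. Per kb, Ptbp1 exceeded Rbfox2 in 41 of 48 WT and 13 of 17 CKO cells, and Rbfox2 exceeded Ptbp2 in 40 and 12. Ptbp2 and Srrm3 had nearly the same pooled level, and Ptbp2 was the higher in 16 WT cells against 30 with more Srrm3, and in 10 CKO cells against 7. Srrm4 exceeded Nova1 in 9 WT cells and was lower in 20, with both at 0 in the other 19. A WT cell had a count of 3 to 7 of the 10 genes and a CKO cell of 4 to 7, with a median of 5 in both groups.

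**Figure D1:**
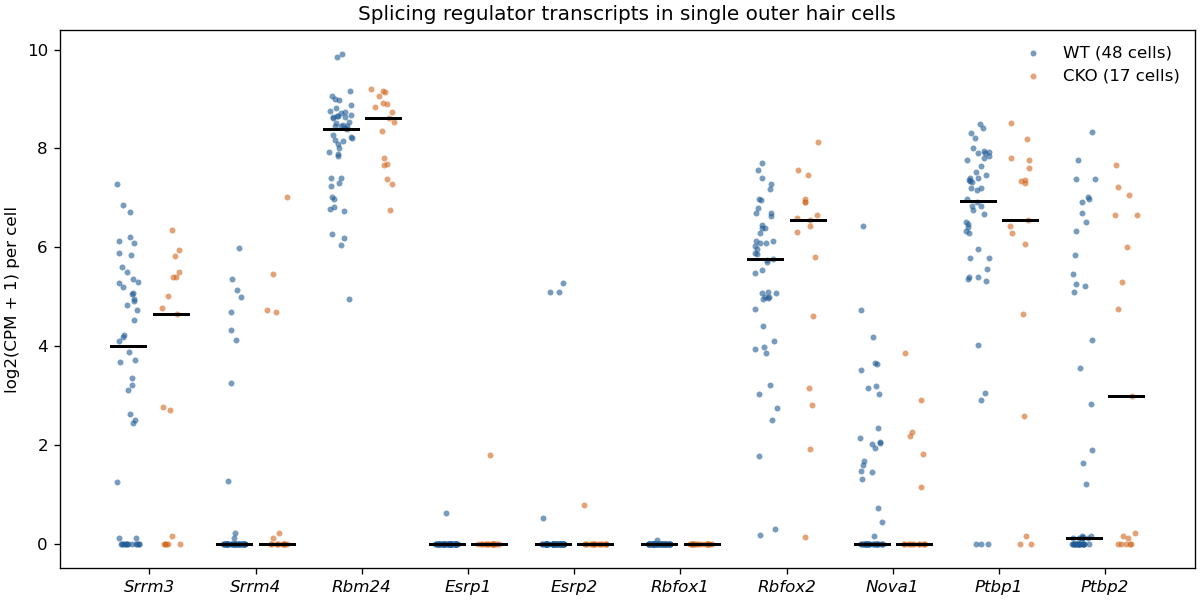
CPM of each gene in single cells on a log2(CPM + 1) axis, for 48 WT and 17 CKO cells. Each point is 1 cell and the short lines are medians. Rbm24 lies above 0 in every cell of both groups, while most cells lie at 0 for Srrm4, Nova1, Esrp1, Esrp2 and Rbfox1.

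Rbm24 was counted in every cell, also in those where it was lowest. It lies on chromosome 13 (46418434 to 46431095, plus strand). Single WT cells ran from 30.0 CPM (WT cell 40) to 955 CPM (WT cell 3), with a median of 336 and quartiles of 169 and 403, and 2 cells, WT 3 and WT 13 (918 CPM), stood well above the other WT cells. CKO cells ran from 107 to 591 CPM, with a median of 393 and quartiles of 204 and 486, so every CKO value lay inside the WT range. Pooled, Rbm24 was at 326 CPM in WT (324 to 327) and 373 CPM in CKO (371 to 376), a log2 ratio of CKO over WT of 0.20 (0.19 to 0.21). A CKO cell had the higher level in 60.5% of the 816 possible pairings of a CKO with a WT cell. The ratio was 0.34 against WT cells 12 to 45 but -0.02 against WT cells 1 to 11 and -0.11 against WT cells 46 to 48, so its direction turned with the run used. Cdh23, the tip link cadherin whose exon usage RBM24 is known to affect, stood at 215 CPM in WT and at 221 CPM in CKO, with a count in 47 and 17 cells.

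Srrm3 was found in most cells and Srrm4 in a minority. Srrm3 lies on chromosome 5 (135806890 to 135874772, plus strand), Srrm4 on the same chromosome (116439275 to 116591817, minus strand). Srrm3 had a count in 36 of 48 WT cells (75%, exact binomial interval 60.4% to 86.4%) and 12 of 17 CKO cells (70.6%, 44% to 89.7%). Its values were 0 to 154 CPM per WT cell with a median of 15.1, and 0 to 80.9 CPM per CKO cell with a median of 24.2, so the groups overlapped almost throughout. Pooled, Srrm3 stood at 25.2 CPM in WT (24.8 to 25.6) and 26.4 CPM in CKO (25.7 to 27.1), and a CKO cell was higher in 50.4% of pairs. The log2 ratio was 0.06 (0.02 to 0.11), but it was -0.02 without the highest cell of each group. With the mean of per-cell CPM it was -0.11 and with their median 0.68. Among cells with the Xist pattern it was 0.22. It was 0.10 against WT cells 1 to 11, 0.14 against 12 to 45 and -0.63 against 46 to 48. Leaving out CKO cell 9 alone gave -0.14.

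Srrm4 had a count in 11 of 48 WT cells (22.9%, 12.0% to 37.3%) and 6 of 17 CKO cells (35.3%, 14.2% to 61.7%), and at least 10 counts in 9 and 4. The 9 WT cells held 62.0 CPM (WT 26), 40.1 (WT 45), 34 (WT 5), 30.9 (WT 8), 25 (WT 48), 19 (WT 27), 16.6 (WT 32), 8.54 (WT 11) and 1.42 (WT 1). The 4 CKO cells held 128 CPM (CKO 8), 42.9 (CKO 1), 25.4 (CKO 3) and 24.9 (CKO 14). Apart from CKO cell 8, the cells with Srrm4 lay in the same range in both groups, and all other cells had 0, 1 or 2 counts.

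Pooled, Srrm4 was 2.65-fold higher in CKO, at 14.6 CPM (14.1 to 15.1) against 5.51 CPM (5.32 to 5.71) in WT, a log2 ratio of 1.41 (1.33 to 1.48). It was the single gene of the 10 that was at least 2-fold higher in CKO with 5 CPM or more in the higher group. CKO cell 8 held 54.4% of the Srrm4 counts of its group. Without that cell the log2 ratio was 0.37, and without the highest cell of each group it was 0.67 (7.11 CPM in CKO against 4.48 CPM in WT). Among cells with the Xist pattern the log2 ratio was 1.60; it was 0.96 against the WT run 1 to 11, 1.73 against the run 12 to 45 and 0.87 against the run 46 to 48. A CKO cell was higher in 56.7% of pairs, with ties counted as 0.5. Summed supporting cell markers had a median of 149 CPM (0 to 613) in the 9 WT cells with at least 10 counts of Srrm4. The other 39 WT cells had 21.5 CPM (0 to 697). In the 4 and 13 CKO cells the medians were 91.3 and 0.0751 CPM. For neuronal markers these medians were 280 and 229 CPM in WT and 155 and 184 CPM in CKO. For glial markers they were 91.7 and 104 CPM in WT and 8.41 and 50.8 CPM in CKO. For mesenchymal markers they were 9.35 and 0.0800 CPM in WT and 0 and 0.225 CPM in CKO. The part of other cell types in the result was not tested.

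The cells with Srrm4 were not simply those with Srrm3. Both had a count in 9 WT cells, Srrm3 alone in 27, Srrm4 alone in 2 and neither in 10; in CKO these numbers were 4, 8, 2 and 3. At 10 counts or more they were 6, 28, 3 and 11 in WT and 3, 8, 1 and 5 in CKO. The CKO cell with most Srrm4, CKO 8, had no count of Srrm3, and WT cell 45, second for Srrm4 among WT cells, had none either.

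**Figure D2:**
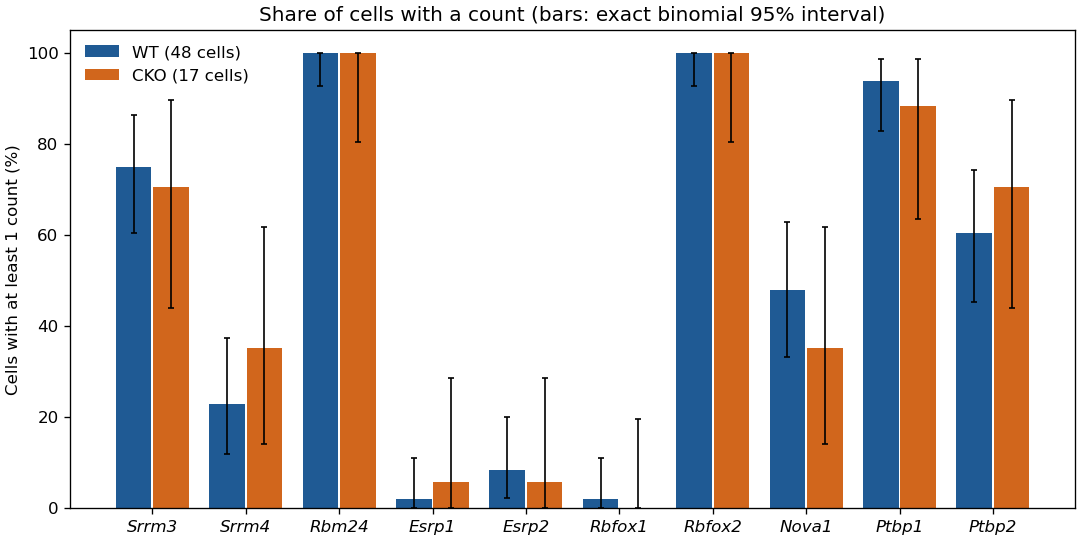
Percent of cells with at least 1 count of each gene, in 48 WT and 17 CKO cells; bars start at 0 and whiskers are exact 95% binomial intervals. Rbm24 and Rbfox2 reach 100% in both groups, and the intervals of WT and CKO overlap for all 10 genes. The intervals treat cells as independent draws, so their overlap is no test between the genotypes.

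Of the 10 genes, 6 reached 5 CPM in the higher group, as did 10842 genes of the table. Srrm4 was the 1 of these 6 that was at least 2-fold higher in CKO, where the share over all 10842 genes was 15.1%, and 0 of the 6 were at least 2-fold lower, where it was 14.5%. Rbm24 and Rbfox2 had a count in all 48 WT cells, as did 10.1% of all these genes, and Srrm4 was counted in under 50% of WT cells, as were 44% of all these genes. Of all 10842 genes, 5469 were higher and 5373 lower in CKO, with a median log2 ratio of 0.0092. Of the 6, 5 were higher and 1 lower, with a median of 0.33. The signs of Srrm3, Rbm24 and Ptbp1 turned with the cells used.

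Rbfox2 was expressed throughout and Rbfox1 was not found beyond 1 count. Rbfox2 lies on chromosome 15 (77078990 to 77307004, minus strand) and had a count in all 48 WT and all 17 CKO cells, with at least 10 counts in 46 and 16. Single WT cells ran from 0.134 to 206 CPM (WT 20) with a median of 53.0 and quartiles of 24.7 and 83.4; CKO cells ran from 0.106 to 279 CPM (CKO 9) with a median of 93.3 and quartiles of 23.5 and 120. The CKO cells reached higher at the top and shared the low end with WT. Pooled, Rbfox2 was 1.51-fold higher in CKO, at 92.4 CPM (91.0 to 93.7) against 61.1 CPM (60.5 to 61.8), a log2 ratio of 0.60 (0.57 to 0.62), and a CKO cell was higher in 61.2% of pairs. Among cells with the Xist pattern the levels were 95.5 CPM in CKO and 89.2 CPM in WT, a log2 ratio of 0.10. It was 0.30 against WT cells 1 to 11, 0.75 against 12 to 45 and 0.52 against 46 to 48.

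Rbfox1, a long gene on chromosome 16 (5885355 to 7411526, plus strand), had 1 count in WT cell 2 and 0 in CKO, where 0 of 17 cells leaves a share of cells with a count of up to 19.5% within the exact binomial interval (17.6% by the limit of 3 in 17). No ratio was formed. Apart from that count, all counts of this pair were of Rbfox2.

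Ptbp1 was found in nearly all cells. Ptbp2 ran from no count to 322 CPM, with some cells at a few CPM in between. Ptbp1 lies on chromosome 10 (79854427 to 79864771, plus strand) and had a count in 45 of 48 WT cells (93.8%, 82.8% to 98.7%) and 15 of 17 CKO cells (88.2%, 63.6% to 98.5%). Its values ran from 0 to 361 CPM in WT with a median of 122 and from 0 to 365 CPM in CKO with a median of 92.3, so the groups spanned the same range. Pooled, Ptbp1 stood at 138 CPM in WT (137 to 139) and 128 CPM in CKO (127 to 130), a log2 ratio of -0.11 (-0.13 to -0.09). It was 0.34 among cells with the Xist pattern, 0.18 against WT cells 1 to 11, -0.12 against 12 to 45 and -0.90 against 46 to 48, so its direction turned with the cells chosen.

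Ptbp2, the paralog that neurons use in place of Ptbp1, lies on chromosome 3 (119718742 to 119784466, minus strand). At least 10 counts were found in 21 of 48 WT cells, from 1.32 to 322 CPM (WT 22), a further 8 WT cells had exactly 1 count and 19 had none. In CKO 9 of 17 cells had at least 10 counts, from 6.91 to 202 CPM (CKO 3), 3 had 1 or 2 counts and 5 had none. Cells with 100 CPM or more of Ptbp2 thus stood in both groups beside cells without any. Pooled, Ptbp2 was at 51.6 CPM in CKO (50.7 to 52.6) and 37.2 CPM in WT (36.7 to 37.8), a 1.39-fold difference and a log2 ratio of 0.47 (0.44 to 0.51), and a CKO cell was higher in 58.0% of pairs. Without CKO cell 3 the log2 ratio was 0.15, without WT cell 1 it was 0.68, and among cells with the Xist pattern it was 0.19. The median per cell was 6.91 CPM in CKO and 0.0915 CPM in WT, a log2 ratio of 6.24; the WT median fell among the cells with 1 count.

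Outer hair cells thus held Ptbp1 and Ptbp2 transcripts side by side in many cells. Both had a count in 27 of 48 WT and 10 of 17 CKO cells, and at least 10 counts in 20 and 8. Ptbp1 alone had at least 10 counts in 25 WT and 6 CKO cells, Ptbp2 alone in 1 and 1, and neither in 2 and 2. The 3 WT cells without a count of Ptbp1 held 10.8 CPM (WT 23), 0.0850 CPM (WT 27) and 0 CPM (WT 42) of Ptbp2. The 2 CKO cells without it held 99.7 CPM (CKO 14) and 0.163 CPM (CKO 9). Ptbp2 therefore was not high in each cell that lacked Ptbp1. Per kb, Ptbp1 exceeded Ptbp2 in 42 WT cells and was lower in 5, and in CKO in 14 and 3. Across cells the Spearman rho of the pair was 0.06 over 48 WT cells and -0.04 over 17 CKO cells, on log2(CPM + 1).

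**Figure D3:**
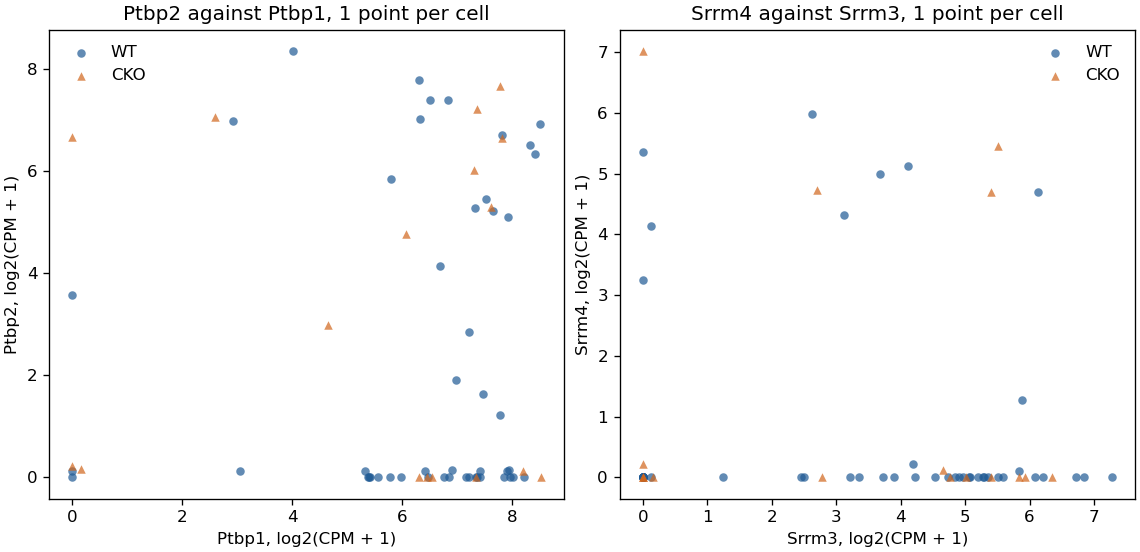
Each point is 1 cell, with its CPM of one paralog on the x axis and of the other on the y axis. Both are log2(CPM + 1), for Srrm3 with Srrm4 and for Ptbp1 with Ptbp2. Cells with a count of both Ptbp1 and Ptbp2 number 27 in WT and 10 in CKO, and cells with both Srrm3 and Srrm4 number 9 and 4.

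Nova1, a neuronal splicing factor on chromosome 12 (46694517 to 46818929, minus strand), was low. It had a count in 23 of 48 WT cells (47.9%, 33.3% to 62.8%) and 6 of 17 CKO cells (35.3%, 14.2% to 61.7%). WT cell 43 held 85.1 CPM, 38.9% of the WT counts of Nova1, the next was WT cell 5 at 25.7 CPM, and the median was 0. In CKO the highest was 13.6 CPM (CKO 4) and the median was 0 as well. Pooled, it stood at 4.71 CPM in WT and 1.69 CPM in CKO, a log2 ratio of -1.48 (-1.65 to -1.32), with both groups under 5 CPM. The ratio was -0.80 without WT cell 43 and -2.10 without CKO cell 4, and among cells with the Xist pattern it was 0.05 (1.91 CPM in CKO and 1.85 CPM in WT). WT cells 46 to 48 had no count. Summed glial markers had a median of 185 CPM in the 20 WT cells with at least 10 counts of Nova1 and 23.3 CPM in the other 28. In the 6 and 11 CKO cells the medians were 8.90 and 50.8 CPM. For neuronal markers these medians were 283 and 201 CPM in WT and 206 and 184 CPM in CKO. For supporting cell markers they were 15.1 and 80.1 CPM in WT and 3.52 and 0.0751 CPM in CKO. For mesenchymal markers they were 0.233 and 0.0713 CPM in WT and 0.0343 and 0.225 CPM in CKO. The part of other cell types in the result was not tested.

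The epithelial regulators Esrp1 and Esrp2 were counted in single cells here and there. Esrp1, on chromosome 4 (11331933 to 11386783, minus strand), had 6 counts in WT cell 7 (0.535 CPM) and 30 counts in CKO cell 10 (2.47 CPM), and none elsewhere. Esrp2, on chromosome 8 (106130319 to 106136974, minus strand), stood at 38 CPM in WT cell 20, 33.2 CPM in WT cell 32 and 33 CPM in WT cell 29, with 5 counts in WT cell 33 and 6 counts in CKO cell 13. The pooled level of Esrp2 was 1.94 CPM in WT, from 4 cells, and 0.0300 CPM in CKO, from 1 cell. All 1063 of its WT counts lay in WT cells 12 to 45. WT cells 1 to 11, WT cells 46 to 48 and the WT cells with the Xist pattern had 0. Summed supporting cell markers had a median of 57.6 CPM (31.8 to 613) in the 3 WT cells with at least 10 counts of Esrp2. The other 45 WT cells had 28.8 CPM (0 to 697). These medians were 151 and 96.3 CPM for glial markers and 109 and 245 CPM for neuronal markers. For mesenchymal markers they were 0.0910 (0 to 546) and 0.125 CPM (0 to 165). The part of other cell types in this result was not tested. In WT the exons of Esrp2 overlap those of Nfatc3, which stood at 26.9 CPM, and of 1810019D21Rik, at 2.42 CPM in 2 cells. No cell had a count of both Esrp1 and Esrp2, and 43 WT and 15 CKO cells had neither.

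**Figure D4:**
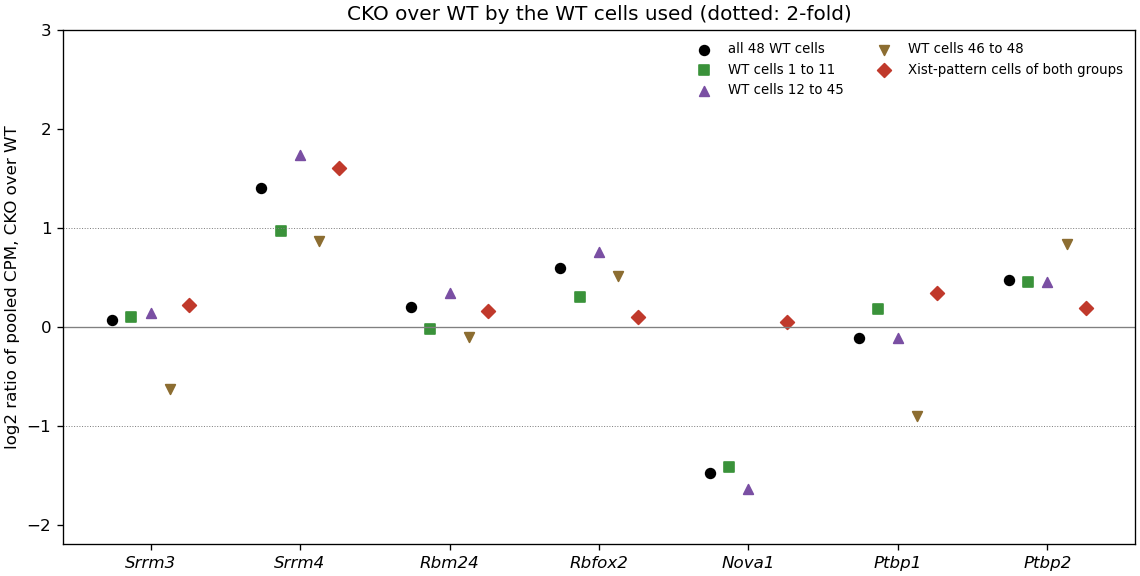
Log2 ratio of CKO over WT for the 6 genes at 5 CPM or more and for Nova1. Points come from all cells, from cells with the Xist pattern and against each run of WT cells. The Xist setting takes 8 of its 9 WT cells from run 1 to 11, so these settings are not independent. The line at 0 is no difference. Nova1 against WT cells 46 to 48, which had no count, is left out. Srrm4 stays above 0 in each setting drawn, from 0.87 to 1.73, while Srrm3, Rbm24 and Ptbp1 have points on either side of 0.

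Pairwise rank correlations of these genes over all WT cells were weak. Among the 7 genes other than Esrp1, Esrp2 and Rbfox1, the 21 pairwise Spearman values over 48 WT cells lay between -0.21 and 0.19, and between -0.26 and 0.27 within WT cells 12 to 45. Within the 11 WT cells 1 to 11 they lay between -0.23 and 0.80; the highest was Srrm3 with Nova1, a pair that stood at -0.26 within WT cells 12 to 45. In the 17 CKO cells they lay between -0.33 (Rbfox2 with Nova1) and 0.50 (Srrm3 with Rbm24), and the Srrm3 and Rbm24 pair stood at 0.00 in WT cells. The labels do not say which cells share an animal or a library batch, depth varied between cells, and zeros fill much of these columns, so weak values carry no finding. With the number of genes detected per cell, Srrm4 had a rho of 0.51 in CKO and 0.28 in WT. Ptbp2 had 0.49 in CKO and -0.09 in WT, and Ptbp1 had 0.46 and 0.18.

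For the 5 genes counted in at least 50% of WT cells, the 2 most similar genes were sought by Spearman rho over 48 WT cells among 6764 genes. Srrm3 lay nearest to Psma5, a proteasome subunit (0.48 in WT, 0.38 in CKO), and Hdac9, a histone deacetylase (0.45, 0.13). Rbm24 lay nearest to Rsbn1l (0.50, 0.04) and Pcdh15, a tip link cadherin (0.49, -0.14). Rbfox2 lay nearest to Scd2, a fatty acid desaturase (0.50, 0.23), and Dazap1, an RNA-binding protein (0.48, -0.05). Ptbp1 lay nearest to Commd10 (0.56, -0.45) and Cdc14b, a phosphatase (0.54, -0.01), and Ptbp2 to Cdkl2, a kinase (0.49, 0.09), and Ptpn2, a phosphatase (0.48, 0.10). The highest of 6764 values is high by selection; in the 17 CKO cells 4 of these 10 values were below 0, and the next after the 0.38 of Psma5 was 0.23.

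The wider splicing machinery was measured alongside, and the counts at 2-fold in each list are to be set beside the 15.1% higher and 14.5% lower of all genes. The numbers higher and lower in each list stand beside 5469 and 5373 of all 10842 genes. All 13 SR proteins and their Tra2 relatives, which bind exonic enhancers, reached 5 CPM, 9 higher and 4 lower in CKO, with a median log2 ratio of 0.06. None was at least 2-fold higher and 1 was at least 2-fold lower: Srsf12, at 16.9 CPM in WT, with a count in 14 cells, and at 0.676 CPM in CKO, with a count in 2. Srsf5 stood at 435 and 692 CPM, Srsf1 at 104 and 151 CPM, Srsf3 at 255 and 320 CPM and Tra2b at 271 and 335 CPM. Of 27 hnRNPs and related proteins, the family of Ptbp1, 12 were higher and 15 lower, with a median of -0.04. None was at least 2-fold higher and 1 was at least 2-fold lower, Pcbp4, with 17.3 CPM from 18 WT cells with a count and 7.02 CPM from 2 such CKO cells. Hnrnpk stood at 763 CPM in WT and 695 in CKO, Hnrnpa2b1 at 459 and 584, Hnrnph1 at 261 and 393, Hnrnpul2 at 55.3 and 106 and Hnrnpf at 77.5 and 45.

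Other tissue-regulated RNA-binding proteins were less often present: 13 of 30 reached 5 CPM, 6 higher and 7 lower, with a median of -0.01. Qk, the regulator quaking, was at least 2-fold higher in CKO, at 32.6 CPM against 13.5 CPM in WT, and Rbm47 at least 2-fold lower, at 1.35 CPM against 5.88 CPM. Celf2, an RNA-binding protein of brain and heart, stood at 131 CPM in WT and 217 CPM in CKO, Elavl1 at 122 and 91.0 CPM, Msi2 at 106 and 122 CPM and Khdrbs3 at 15.3 and 8.97 CPM. All 37 core spliceosome genes reached 5 CPM, 19 higher and 18 lower, with a median of 0.03. None was at least 2-fold higher and 2 were at least 2-fold lower, Sf3a1 at 51.4 CPM in WT and 17.9 CPM in CKO, and Sf3a2 at 15.4 and 5.01 CPM. Both encode subunits of the SF3A complex, whose other subunit gene, Sf3a3, stood at 76.8 and 78.3 CPM. Srrm1, a serine and arginine repeat protein like Srrm3 and Srrm4, stood at 79.3 and 137 CPM, Sf3b1 at 331 and 285 CPM, Sf3b2 at 328 and 324 CPM and Sf3b6 at 635 and 541 CPM.

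Genes whose splicing is known to depend on these regulators showed no large difference in whole-gene level where they reached 5 CPM. Of 8 such genes 5 reached 5 CPM, 4 higher and 1 lower in CKO, with a median log2 ratio of 0.14 and none at least 2-fold apart. Rest stood at 57.2 CPM in WT (40 of 48 cells) and 64.3 CPM in CKO (16 of 17 cells). Cdh23 is given above, Pkm, the pyruvate kinase gene whose exons PTBP1 is known to choose between, stood at 385 and 426 CPM, Enah at 125 and 203 CPM and Dlg4, which PTBP proteins are known to regulate, at 16.3 and 14.5 CPM. Cd44 had no count in any cell, and Fgfr2 stood at 0.0201 CPM in WT and 0.00500 CPM in CKO. Ctnnd1 stood at 2.83 CPM in WT, from 11 cells with a count, and had no count in CKO. Of 7 genes of REST and its corepressors 6 reached 5 CPM, 2 higher and 4 lower, with a median of -0.20. That median was 0.08 among cells with the Xist pattern and 0.13 against WT cells 1 to 11. Against WT cells 12 to 45 it was -0.23, and against 46 to 48 it was 1.06. Rcor1, the corepressor CoREST, was at least 2-fold lower in CKO, at 14.8 CPM (9 of 17 cells) against 48.5 CPM in WT (38 of 48 cells), while Kdm1a (86.0 CPM in WT, 67.7 in CKO), Hdac1 (69.5, 61.9) and Hdac2 (137, 117) lay closer.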

How the data were processed

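Single outer hair cells (48 WT, 17 CKO) were profiled with a full-length Smart-Seq HT protocol without molecular identifiers, per the labels' protocols. The protocol text mentions inner and induced outer hair cells, whereas titles and design name outer hair cells, which was followed. The counts deposited by the authors are whole numbers per gene and cell, not normalised, in 1 table. Per the submitters' processing notes, HISAT2 2.2.1, StringTie 2.2.1 and featureCounts 2.0.1 were used with mm10; which of them gave the counts, and with which annotation, strand setting and filter, is not given in the sources used here.

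All 65 columns matched 1 sample title each, and no cell was left out. Counts were summed per genotype and divided by the summed total, as CPM (counts per 1000000). CPM carry exact Poisson intervals, ratios exact conditional intervals and shares of cells exact binomial (Clopper-Pearson) intervals, at 95%. Those on CPM and ratios cover counting error only, and such reads are not independent molecules. The binomial intervals treat cells as independent draws, although cells are not replicates. Where 1 group had 0 counts, 3 counts stood in for the whole group and the ratio is a bound. Genes at 5 CPM or more in the higher group counted as measured, and a gene was said to be apart at 2-fold. The Xist pattern means 10 or more Xist counts with under 10 summed over the Y-linked genes Ddx3y, Eif2s3y, Kdm5d and Uty. Levels between genes were compared only per kb of merged exons in GENCODE M21 (GRCm38), which holds 96.4% of the table's symbols.

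The members, lists and settings were chosen with earlier results of these data known. Besides the 10 members, the text names of each list up to 3 genes with the highest CPM in the higher group and up to 3 with the largest ratio, and for each member counted in at least 50% of WT cells the 2 most similar genes. Code was tested on simulated counts. Python 3.11.15, scipy 1.17.1, edgeR 4.0.16 (TMM factors) and DESeq2 1.42.0 (size factors) were used. Other settings tried were the mean or median of per-cell CPM, those factors, a total that leaves out mitochondrially encoded and ribosomal protein genes, subsets of cells, thinning to 7458126 counts per cell, other CPM filters and leaving out single cells. The sequence comparison of 1 paralog pair is not reported here.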

Additional observations from a re-analysis of the deposited data

How the results depend on the processing

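The number of members at least 2-fold higher in CKO was 1, Srrm4. It was 0 against WT cells 1 to 11, 0 against WT cells 46 to 48, 0 with a filter of 20 CPM, 0 without the highest cell of each gene in each group, and 2 with no filter (Srrm4 and Esrp1). Leaving out each cell in turn gave 0 (without CKO cell 8) to 1. With the median of per-cell CPM it was again 1, but the gene was Ptbp2. The number at least 2-fold lower was 0. It was 1, Nova1, with a total that leaves out mitochondrially encoded and ribosomal protein genes, 1 (Nova1) against WT cells 12 to 45, 1 (Nova1) with cells of at least 10000000 counts, 2 (Esrp2 and Nova1) with a filter of 1 CPM and 2 with no filter; leaving out each cell in turn gave 0 throughout. The shares over all genes, 15.1% higher and 14.5% lower, belong to the main setting. No such share is given for the other settings, so their counts of members cannot be set against one. Nova1 lies close to the 5 CPM filter. In the higher group Srrm4 stood at 14.6 CPM, Esrp2 at 1.94 CPM and Esrp1 at 0.150 CPM, which sets what each filter kept. CKO cell 8 held 54.4% of the CKO counts of Srrm4. The cause of the other changes was not tested.

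Of 103 member ratios under other settings, 12 had the other sign and 66 lay outside the counting interval of the pooled ratio, and 5 gave no value: Srrm4, Nova1, Esrp1 and Esrp2 with the median of per-cell CPM, which was 0 in both groups, and Esrp1 without its highest cells, which left no count. Against WT cells 46 to 48, where Nova1 had 0 counts, its log2 ratio was at least 4.35 with 3 counts set for those 3 cells. TMM factors shifted all log2 ratios by -0.04, DESeq2 factors by 0.04 and the reduced total by -0.03. The list medians changed sign in 4 (SR proteins), 5 (hnRNPs), 6 (tissue-regulated), 6 (core spliceosome), 3 (REST and corepressors) and 1 (known targets) of 17 settings. At thinned depth Srrm4 was found in 11 WT and 4 CKO cells. Pairwise Spearman values at thinned depth lay between -0.21 and 0.20 in WT and between -0.35 and 0.52 in CKO, and Pearson values between -0.25 and 0.24 and between -0.52 and 0.39.

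No paired analysis was possible because each genotype is 1 sample and cell numbers pair nothing. With 1 sample per genotype, no difference has a replicate check, and whole-gene counts do not show exon use. A member with no count in a cell was not detected there. Whether its transcripts were absent or lost before counting was not tested.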
